A study of Mus musculus with 38 samples.

Results

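LAD + Myriocin mice were compared with sham mice 24 h after surgery by qRT-PCR of 21 target assays. The comparison holds 12 of the 38 mice of the study, 7 LAD + Myriocin and 5 sham, chosen by the group and time given in the labels, and every target assay is described. All mice were male C57BL/6N, 8 to 10 weeks old. In the LAD + Myriocin group the left anterior descending coronary artery was tied for 30 min and released, and 20 µL of SLN/myr, diluted from a 1 mM stock, was injected into the left ventricle at the start of reperfusion. SLN/myr is a solid lipid nanocarrier loaded with Myriocin. Sham mice had the same surgery without ligation, and no injection is described for them. RNA came from the at-risk area of the left ventricle, named by the paper apart from the infarct area, in LAD + Myriocin mice. In sham mice it came from left ventricular tissue. Occlusion, drug and dissected region therefore differed together between the 2 groups, with injection and carrier too if sham mice had neither, and they cannot be told apart in this comparison. The LAD group, 7 mice with occlusion and an empty carrier, is used only beside single results.

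Myriocin blocks serine palmitoyltransferase, the first enzyme of sphingolipid synthesis, and so lowers the making of ceramide. The heart draws most of its energy from fatty acids, which membrane carriers take up, carnitine palmitoyltransferases pass into mitochondria and acyl-CoA dehydrogenases oxidise. Peroxisome proliferator-activated receptors with their coactivator PGC-1α govern these genes, TFEB governs lysosomal and autophagy genes, and perilipins coat lipid droplets. After ischemic damage the heart can return to a fetal profile, in which the β-myosin heavy chain gains on the α form.

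The 21 target primer pairs of the study cover α- and β-myosin heavy chain, the PPARs, PGC-1α and TFEB, the autophagy receptor SQSTM1, fatty acid carriers, CPT1 isoforms and UCP3, MCAD and LCAD, hormone-sensitive lipase and perilipins. The Ct table names its rows by plate code only, A01 to A12 and B01 to B09, and none of the tables used here pairs a code with a gene. The assays are therefore reported by code, and no gene is given for any value. Code B10 fills the row under every target row and was taken as the RPLI reference assay, the single endogenous control in the study's methods. Its primers are shown because every relative value below is a difference from this amplicon. They are written 5′ to 3′ in lower case and are 18 bases each.
RPLI forward: ctcggccgttctcctgta
RPLI reverse: gtggaagtggggcttcag

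For each assay and sample number, the target Ct was subtracted from the Ct of the reference row under it. This relative expression is in log2 units, so 1 unit is a doubling if both reactions double the product in every cycle. Relative quantity set the mean log2 value of the sham mice to 1. Target Ct alone also moves with the amount of sample in a reaction, which the reference row is there to offset. Splitting a difference into target and reference parts therefore does not tell which of them changed. Ct values of different assays depend on their primers, so levels were not compared between assays. Since the codes carry no gene names, the tissue label could not be checked against marker genes. In bulk tissue, fewer cells of a type and less RNA per cell cannot be told apart. Both Ct values were present for 189 of the 252 possible combinations of mouse and assay, 72 of 105 in sham and 117 of 147 in LAD + Myriocin mice. Sham was left with 3 mice in 15 assays, 4 in 3 and 5 in 3, and LAD + Myriocin with 4 to 7. The target Ct ran from 15.0 to 34.2, and none was above 35.

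Some sham values stood apart before any test. In 6 of the 15 assays with 3 sham mice, the relative expression of 1 sham mouse equalled the mean of the other two within 0.0001 cycles. These were A07 and A08 (sham 4), B05 and B06 (sham 3), B08 (sham 2) and B09 (sham 5). No such value was found in the 14 sets of 3 mice of the other groups of the study, or in the 97 sets of 4 or more mice over all groups. Such a value leaves the sham mean where it was and narrows its SD, so results of these assays are also given without it. Why the values coincide was not tested.

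Of the 21 assays, 3 differed between LAD + Myriocin and sham mice by an exact permutation test at an unadjusted p under 0.05 (14.3% of those tested). B07 and B02 were higher (9.52%) and B08 was lower (4.76%). After Benjamini-Hochberg adjustment over the 21 assays the exact test called 0, with a lowest adjusted p of 0.20, whereas the lowest value the group sizes allow is 0.0385. limma over all 38 mice called 5 assays unadjusted (A01, A02, A09, B07 and B08) and 2 adjusted (A02 and B08, both lower). Without the 6 sham values described above, the exact test called 2, B02 and B07, and limma adjusted called 1, A02. The groups did not overlap in 4 assays (19.0%), namely B07 and B02, higher, and B08 and A02, lower. For A02, B05 and B06, with 4 LAD + Myriocin and 3 sham mice, the exact test cannot go below 0.0571. The 21 differences ran from -1.96 to 1.40 with a median of -0.19 on the log2 scale, 10 above 0 and 11 below. The SD over mice was larger in LAD + Myriocin than in sham in 18 of the 21 assays, with median SDs of 0.45 and 0.23. The sham SDs rest on 3 mice in 15 assays. They include the 6 sham values described above, which narrow them, and were not computed without those values.

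**Figure D1:**
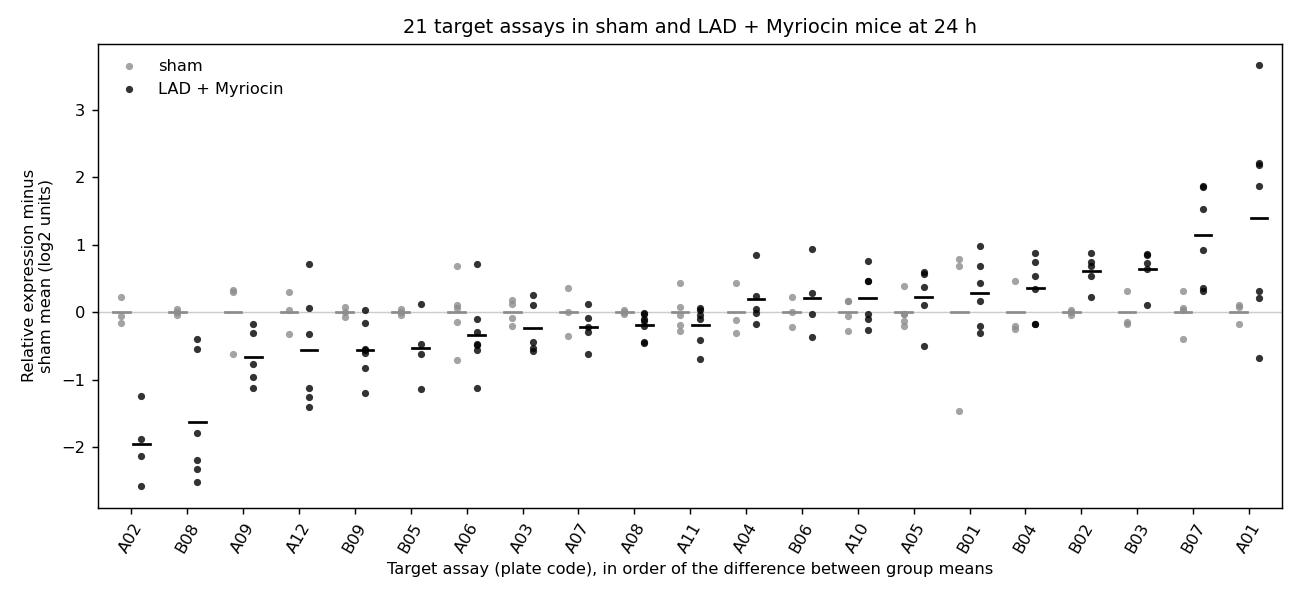
Relative expression of each mouse minus the sham mean of the assay (vertical axis, log2 units) for the 21 target assays, ordered from left to right by the difference between group means. Points are mice, grey for sham and black for LAD + Myriocin, and bars are group means. Black points lie wholly above the grey ones in B07 and B02 and wholly below in A02 and B08.

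B07 had the lowest exact p of the 21 assays. The relative quantities in sham mice 1, 2, 4 and 5 were 1.02, 0.759, 1.04 and 1.24. In 6 LAD + Myriocin mice they ran from 1.24 to 3.65 with a median of 2.38. Mice 1, 3 and 6 held the high values (3.65, 3.62 and 2.88), while mice 2 and 5 lay next to the highest sham mouse. The gap between the groups was 0.0002 cycles, with 1.2442 in sham 5 and 1.2444 in LAD + Myriocin 2. The difference was 1.14 ± 0.33 log2 units (SE, n = 6 and 4), or 2.21-fold, with an exact permutation p of 0.00952, the smallest these numbers allow (adjusted p = 0.20). With any 1 mouse left out, the difference ran from 1.00 to 1.31. The exact p then stays under 0.05 by design, since groups that do not overlap remain apart, so it adds no support. The call was lost without a reference, where the difference in target Ct alone came to 0.54 cycles (exact p = 0.619), and the other 0.60 came from the reference reading of B07, which was higher in LAD + Myriocin mice. It was lost under the other references too, with 0.30 for the mean reference Ct of the sample number (exact p = 0.771) and 0.09 for the mean Ct of all targets (exact p = 0.924). Both means cover only the assays read for a sample number, 8 to 20 of them. Here and below they therefore also shift with the empty cells and cannot decide a call. The LAD mice differed from the same sham mice by 0.84 (exact permutation p = 0.143). LAD + Myriocin minus LAD was 0.30 (exact permutation p = 0.563).

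B02 was higher in all 5 measured LAD + Myriocin mice. The sham mice 1 to 3 lay close together at 1.00, 0.975 and 1.02. LAD + Myriocin mice 1 to 5 had 1.68, 1.16, 1.84, 1.46 and 1.60, so that mouse 2 was nearest to sham and mouse 3 farthest. The difference was 0.61 ± 0.11 log2 units (n = 5 and 3), 1.53-fold, with an exact permutation p of 0.0357 (adjusted p = 0.20), the smallest these numbers allow. In limma over all mice its 95% interval was -0.21 to 1.44. The reference reading of B02 itself differed by 0.04 cycles, and the target Ct alone gave 0.57 (exact p = 0.143). The difference came to 0.01 with the mean reference Ct of the sample number (exact p = 1) and to 0.40 with the mean Ct of all targets (exact p = 0.50), so the call was lost under each of these settings. Leaving out any of its 8 mice ended the call, since fewer mice cannot reach the threshold. LAD mice had a mean relative expression of -5.08 against -4.01 in LAD + Myriocin mice, a difference of 1.07 (exact permutation p = 0.0159, adjusted p = 0.111). The B02 target Ct ran from 30.3 to 30.9 in LAD mice, below the LAD + Myriocin mean of 31.0. The target Ct alone thus went the other way. The reference readings ran from 24.9 to 26.3 in LAD mice, below the LAD + Myriocin mean of 27.0, and made up the difference. Whether the target or the reference changed was not tested.

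B08 was lower in all 6 measured LAD + Myriocin mice. Sham mice 2, 3 and 4 had relative quantities of 1.00, 0.968 and 1.03. LAD + Myriocin ran from 0.175 to 0.760 with a median of 0.254. Mice 4 and 5 (0.760 and 0.683) lay nearest to sham and the other four at or below 0.289. The difference was -1.63 ± 0.38 log2 units (n = 6 and 3), so that sham was 3.09-fold higher, with an exact permutation p of 0.0238, the smallest these numbers allow (adjusted p = 0.20). The limma interval was -2.69 to -0.57, with an adjusted p of 0.0399 in limma. Sham 2 was the mean of the other two sham mice. Without it the difference was again -1.63, but the exact p was 0.0714, the lowest that 6 and 2 mice allow, and limma's adjusted p was 0.129. The LAD mice, set against the same sham mice, differed by -1.81 at 24 h (exact permutation p = 0.0238, the smallest these numbers allow). LAD + Myriocin minus LAD was 0.19 (exact permutation p = 0.665, adjusted p = 0.970).

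A02 had the largest difference of the 21 assays in either direction. Sham mice 1 to 3 had relative quantities of 0.964, 0.891 and 1.16, and LAD + Myriocin mice 1, 2, 4 and 5 had 0.420, 0.271, 0.228 and 0.167. Every LAD + Myriocin mouse lay more than 1 cycle below the lowest sham mouse, with a gap of 1.08. The difference was -1.96 ± 0.30 log2 units (n = 4 and 3), with sham 3.90-fold higher and an exact permutation p of 0.0571, the smallest these numbers allow. In limma over all mice the interval was -2.95 to -0.98 and the adjusted p was 0.00892. The target Ct alone differed by -2.53 cycles, against 0.57 for the reference. The LAD mice, compared with the same sham mice, had a difference of -1.22 (exact permutation p = 0.0571). LAD + Myriocin minus LAD was -0.74 (exact permutation p = 0.0857, adjusted p = 0.36).

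A08, B09 and B03 had an exact permutation p from 0.05 to 0.0714, with overlapping groups. A08 was 0.977, 1.02 and 1.00 in sham mice 2 to 4, and from 0.726 to 0.990 with a median of 0.912 in 7 LAD + Myriocin mice. Only LAD + Myriocin mice 1 and 5 (0.990 and 0.982) reached the sham range. The difference was -0.20 ± 0.07 (n = 7 and 3), with an exact permutation p of 0.05, which is not under the threshold, and 0.167 without sham 4. After adjustment, A08 was the only assay of the 21 that differed between LAD + Myriocin and LAD, by 0.93 log2 units (exact permutation p = 0.000583, adjusted p = 0.0122). The A08 target Ct ran from 25.6 to 28.6 in LAD and from 25.8 to 27.9 in LAD + Myriocin mice. The reference readings ran from 22.6 to 26.0 and from 24.3 to 26.5. Most of the 0.93 thus lay in the reference readings, which does not tell whether the target or the reference changed. No other reference was tried for this contrast. LAD itself was 1.13 lower than the same sham mice (exact permutation p = 0.0167).

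B09 was 1.05, 0.949 and 1.00 in sham mice 3 to 5, against 0.435 to 1.02 with a median of 0.678 in 7 LAD + Myriocin mice. Mouse 1 was the lowest, and only mouse 4 lay within the sham range. The difference was -0.56 ± 0.16 (n = 7 and 3; exact permutation p = 0.05), and without sham 5, the mean of the other two, the exact p was 0.111. B03 was 0.906, 0.885 and 1.25 in sham mice 1 to 3 and 1.65, 1.08, 1.56, 1.80 and 1.82 in LAD + Myriocin mice 1, 2, 4, 5 and 7. LAD + Myriocin mouse 2 lay below sham 3, and the other four lay above every sham mouse. The difference was 0.64 ± 0.21 (n = 5 and 3; exact permutation p = 0.0714). It was 0.60 on the target Ct alone (exact p = 0.107) and 0.05 with the mean Ct of all targets (exact p = 0.964). With the mean reference Ct of the sample number it was 0.0054. In sham mice 1 to 3 and LAD + Myriocin mice 1, 2, 4 and 5 the reference readings of B03 were those of B02. The differences of B02 and B03 are therefore not independent.

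**Figure D2:**
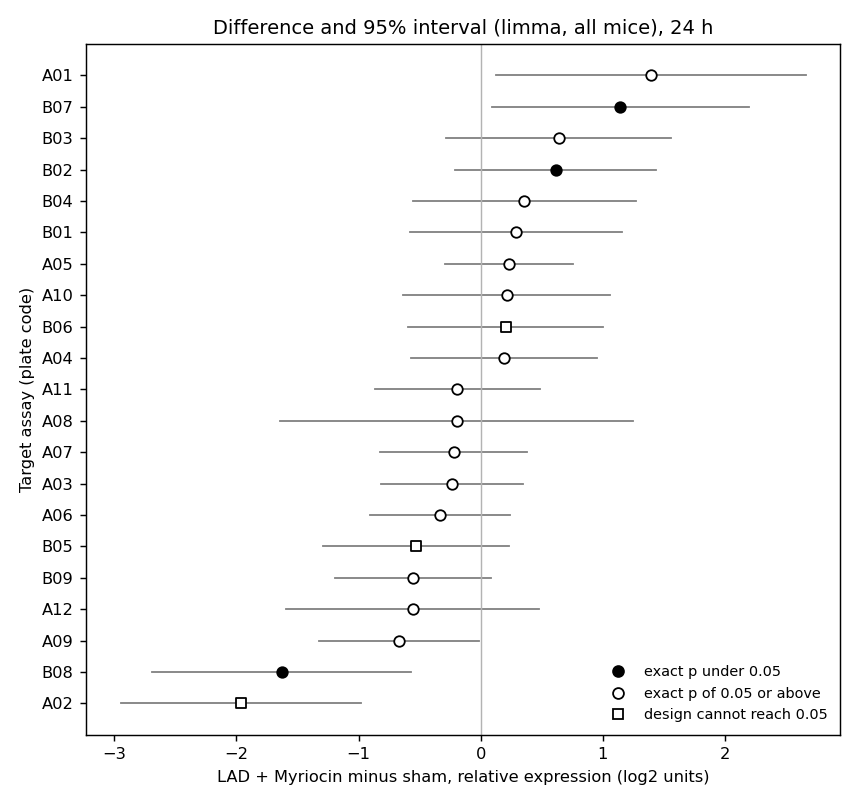
Difference in mean relative expression, LAD + Myriocin minus sham at 24 h (horizontal axis, log2 units), for the 21 assays, with the 95% interval of limma over all 38 mice as a line. Filled circles are the 3 assays with an exact p under 0.05, open circles those at or above it, and squares the 3 assays whose group sizes cannot reach it. The intervals of A01, A02, A09, B07 and B08 lie off 0.

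Among the other assays with a higher mean in LAD + Myriocin, A01 had the widest spread. Its sham mice 1 to 3 had relative quantities of 1.05, 0.887 and 1.07. In LAD + Myriocin they ran from 0.624 to 12.7 with a median of 3.66. Mouse 4 was highest, mice 2, 3 and 5 lay between 3.66 and 4.62, mice 1 and 7 lay near sham (1.25 and 1.15) and mouse 6 lay below every sham mouse. The difference was 1.40 ± 0.57 (n = 7 and 3), 2.63-fold, with an exact permutation p of 0.183 and a limma interval of 0.12 to 2.67. Without mouse 6 it was 1.74 and the groups no longer overlapped. The exact p of 0.0238 is then the smallest that 6 and 3 mice allow, so it adds no support. Of the 12 fits that left out a sample number this was the only 1 under 0.05, with an exact p of up to 0.278 in the others. The LAD mice, against the same sham mice, had a difference of 2.72 (exact permutation p = 0.0571, the smallest for 4 and 3 mice), and LAD + Myriocin minus LAD was -1.33 (exact permutation p = 0.109).

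B04 was 0.839, 0.866 and 1.38 in sham mice 2, 4 and 5 and 0.886 to 1.84 with a median of 1.36 in 6 LAD + Myriocin mice. All LAD + Myriocin mice exceeded the lower sham pair, and 3 of them exceeded sham 5. The difference was 0.36 ± 0.30 (exact permutation p = 0.262; limma interval -0.56 to 1.27). B01 was 1.73, 1.61 and 0.360 in sham mice 3, 4 and 5, and from 0.809 to 1.97 with a median of 1.23 in 6 LAD + Myriocin mice. Sham 5 lay far below the other two. The B01 difference of 0.29 ± 0.77 (exact permutation p = 0.619) turned to -0.45 without that mouse (exact p = 0.357).

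A05 was measured in all 5 sham mice, at 0.984, 0.983, 1.31, 0.865 and 0.913. LAD + Myriocin mice 1, 2, 3, 6 and 7 had 1.52, 1.29, 1.48, 0.706 and 1.08. Mouse 6 was below every sham mouse and mice 1 and 3 above every one. The difference was 0.23 ± 0.23 (exact permutation p = 0.341; limma interval -0.29 to 0.75), and 0.41 without mouse 6 (exact p = 0.0476). Of the 12 fits that left out a sample number this was the only 1 under 0.05, with an exact p of up to 0.571 in the others. A10 was 1.12, 1.13, 0.824 and 0.964 in sham mice 1 to 4 and 0.832 to 1.69 with a median of 1.17 in 6 LAD + Myriocin mice. Mice 1 to 3 exceeded the sham range and the rest lay inside it. Its difference was 0.21 ± 0.19 (exact permutation p = 0.333; limma interval -0.64 to 1.06).

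B06 and A04 had differences of similar size. B06 was 1.17, 0.854 and 1.00 in sham mice 1 to 3 and 1.90, 0.979, 0.778 and 1.22 in LAD + Myriocin mice 2 to 5. Mouse 2 set the sign, since the difference of 0.21 ± 0.30 (exact permutation p = 0.686) became -0.04 without it (exact p = 0.90). Without sham 3 it was again 0.21 (exact p = 0.80). A04 was 0.806, 0.921 and 1.35 in sham mice 2 to 4 and 0.990, 0.887, 1.18, 1.03 and 1.80 in LAD + Myriocin mice 2 to 6. Only mouse 6 was outside the sham range. The difference was 0.19 ± 0.28 (exact permutation p = 0.607; limma interval -0.57 to 0.95).

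A09 led the remaining assays with a lower mean in LAD + Myriocin. Sham mice 1 to 3 had 0.650, 1.23 and 1.25, and LAD + Myriocin mice 2 to 6 had 0.456, 0.804, 0.885, 0.588 and 0.516. Sham 1 lay within the LAD + Myriocin range, and the other sham pair lay above it. The difference was -0.67 ± 0.36 (exact permutation p = 0.107), with a limma interval of -1.33 to -0.01. A12 was 1.23, 1.03 and 0.795 in sham mice 1 to 3. In 6 LAD + Myriocin mice it ran from 0.378 to 1.64 with a median of 0.626. Mice 4, 5 and 6 lay below every sham mouse and mouse 1 above every one. The A12 difference was -0.56 ± 0.39 (exact permutation p = 0.357; limma interval -1.59 to 0.48).

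B05 was 1.03, 0.970 and 1.00 in sham mice 1 to 3 and 1.08, 0.648, 0.452 and 0.720 in LAD + Myriocin mice 2 to 5. Mouse 2 was above every sham mouse and the other three below every one. The difference was -0.53 ± 0.26 (exact permutation p = 0.229; limma interval -1.29 to 0.23), and -0.53 again without sham 3. A06, the assay read in all 12 mice, was 1.61, 0.612, 1.04, 0.901 and 1.08 in sham mice 1 to 5. In the 7 LAD + Myriocin mice it ran from 0.458 to 1.64 with a median of 0.718. The groups spanned nearly the same range, and the difference was -0.33 ± 0.31 (exact permutation p = 0.313; limma interval -0.91 to 0.24).

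A03 was 0.865, 1.13, 1.09 and 0.942 in sham mice 1, 2, 3 and 5. LAD + Myriocin mice 1, 2, 3, 4 and 6 had 0.689, 0.673, 1.08, 0.736 and 1.20. Mice 1, 2 and 4 lay below sham, and mouse 6 lay above it. The difference was -0.24 ± 0.20 (exact permutation p = 0.286; limma interval -0.82 to 0.34). The LAD mice were 1.27 lower than the same sham mice (exact permutation p = 0.0159), and LAD + Myriocin exceeded LAD by 1.03 (exact permutation p = 0.00794, adjusted p = 0.0833). The A03 target Ct ran from 30.6 to 31.6 in LAD mice, around means of 31.1 in LAD + Myriocin and 31.2 in sham mice. The LAD reference readings ran from 24.5 to 26.0, below means of 26.3 and 26.6. Both differences from LAD thus lay mostly in the reference readings. Whether the A03 target or its reference changed was not tested.

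A07 was 0.784, 1.27 and 1.00 in sham mice 2 to 4 and 0.813, 0.854, 0.649, 0.945 and 1.09 in LAD + Myriocin mice 1 to 5. Only mouse 3 was outside the sham range. The difference was -0.22 ± 0.24 (exact permutation p = 0.393; limma interval -0.82 to 0.38), and -0.22 again without sham 4. A11 was 0.976, 1.05, 1.35, 0.826 and 0.876 in the 5 sham mice and 0.620 to 1.04 with a median of 0.951 in 6 LAD + Myriocin mice. Mice 3 and 5 lay below sham and the rest inside its range. The A11 difference of -0.19 ± 0.17 (exact permutation p = 0.316; limma interval -0.87 to 0.48) was among the smallest.

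The reference assay had a lower mean Ct in LAD + Myriocin than in sham mice, a call that held under few alternatives. Averaged over assays, the reference Ct of sham mice 1 to 5 was 26.6, 26.7, 26.6, 26.0 and 26.2, a mean of 26.4 ± 0.312 (SD, n = 5). In LAD + Myriocin mice it ran from 25.9 to 26.3 with a median of 26.1, a mean of 26.1 ± 0.141 (n = 7). The difference was -0.331 cycles (exact permutation p = 0.0455). The means rest on 8 to 20 assays per mouse. In A06, the assay read in all 12 mice, the difference was -0.199 (exact p = 0.785), with the sham mice of both times pooled it was 0.393 (exact p = 0.248), and the call held in 3 of the 12 fits that left out 1 mouse. Sham 4 and 5 lay within the LAD + Myriocin range, and the mean of the LAD mice was 25.3. Of the 189 reference readings, 130 were distinct. Among these, 25 stood under more than 1 sample number, always of the same group, and 23 recurred in several assays of 1 sample number. For instance, 26.6937 and 26.7448 stood under sham 1 and 2 in A03 and under sham 2 and 3 in A04. A sample number may therefore not be the same mouse in every assay, and the sources used here do not state it. Means over assays, pairs by number and fits that leave out a number in several assays refer to sample numbers in this sense.

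**Figure D3:**
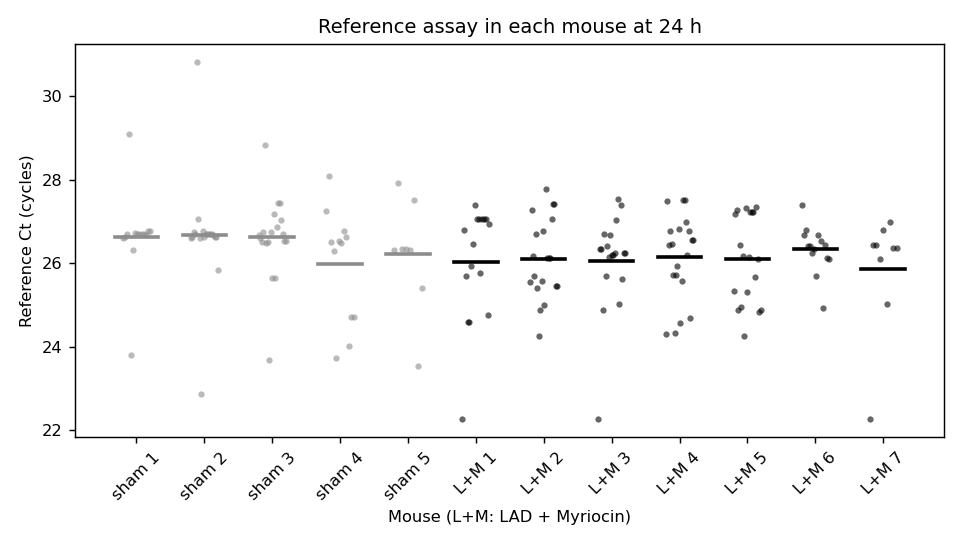
Reference Ct (vertical axis, cycles) in each of the 5 sham mice (grey) and 7 LAD + Myriocin mice (black) at 24 h. Points are the readings listed with the target assays of that mouse and bars their mean, between 25.9 and 26.7 in every mouse.

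The reference readings moved with single assays by more than these means did. Per assay the difference in reference Ct ran from -3.15 to 2.19 cycles, lower in LAD + Myriocin in 13 assays and higher in 8. In A05 the sham reference readings were 29.1, 30.8, 28.8, 28.1 and 27.9, against 24.6 to 26.7 in LAD + Myriocin, a difference of -3.15 (exact permutation p = 0.00794). In A08 they were 22.9, 23.7 and 23.7 in sham and 24.3 to 26.5 in LAD + Myriocin, a difference of 2.19 (exact permutation p = 0.0167). Target and reference shifted together in both assays, so that differences of 3.38 and -2.39 in target Ct came to 0.23 and -0.20 in relative expression. In A01 a target difference of 3.83 stood beside a reference difference of -2.43. On the target Ct alone the exact test called A05, higher, and A08, lower. B08 was then -1.86 (exact p = 0.0952), B02 0.57 and B07 0.54, none of them called. B08 was called with the mean reference Ct of the sample number (-2.18) and with the mean Ct of all targets (-2.13), each with an exact p of 0.0476. What the shared shifts in A01, A05 and A08 come from was not tested.

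**Figure D4:**
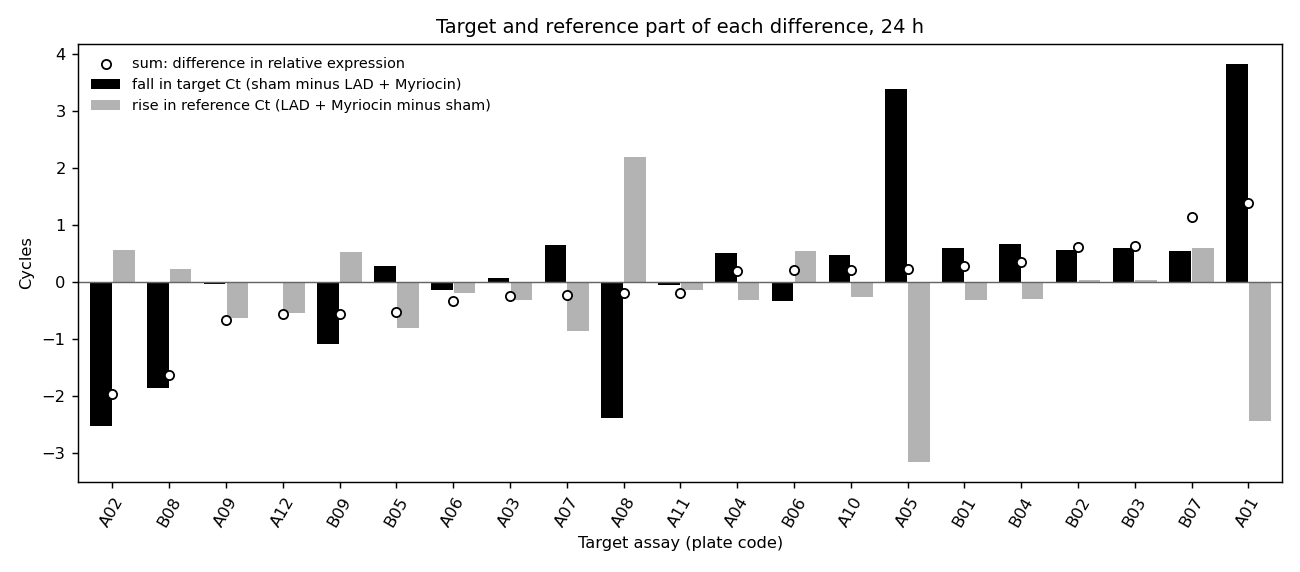
The target and reference parts (vertical axis, cycles) of each difference between LAD + Myriocin and sham at 24 h, by assay. Black bars are the fall in mean target Ct, grey bars the rise in mean reference Ct, and circles their sum, the difference in relative expression. A05, A08 and A01 have large bars of opposite sign, from -3.15 to 3.83 cycles.

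At 96 h, other mice of the same design gave differences between LAD + Myriocin and sham of 1.23 for A03, 2.26 for B03, 1.31 for A04 and 0.63 for A06. The change between 24 and 96 h passed in 1 of 21 assays by limma's interaction test. This was A03, with -0.24 at 24 h and 1.23 at 96 h, a difference of -1.47 (95% interval -2.27 to -0.67, adjusted p = 0.0146). With the mean Ct of all targets as reference it was -1.81 (adjusted p = 0.155 in limma) and on the target Ct alone -0.70 (adjusted p = 0.757), neither of them called. B03 (-1.62, adjusted p = 0.0893), A04 (-1.12, adjusted p = 0.204) and A06 (-0.96, adjusted p = 0.170) passed only before adjustment. B08 and B07 differed between the times by 0.43 and 0.87, with adjusted p of 0.742 and 0.520, and their intervals of -1.10 to 1.95 and -0.72 to 2.46 leave differences of either sign possible.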

How the data were processed

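The authors extracted total RNA from left ventricle, treated it with DNase I, reverse transcribed it and ran SYBR green qRT-PCR. The deposited table holds Ct values, the PCR cycle at which a signal crosses its threshold, with no normalization, for 21 target assays each followed by the reference assay. How wells were combined, the threshold and the reason for empty cells are not given in the sources used here. A second deposited table holds only the authors' fold changes against sham and was not used. All 38 columns matched a sample by its label.

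The target Ct was subtracted from the reference Ct where both were present. The difference in means was tested by exact permutation, two-sided (p as 2 times the smaller tail, threshold 0.05), with Benjamini-Hochberg adjustment over the 21 assays. limma 3.58.1 in R 4.3.3, over all 38 mice in 6 groups, gave the 95% intervals and the interaction with time. Python 3.11.15, NumPy 2.4.6 and pandas 2.3.3 were used for the rest. Both tests were run on simulated data with large shifts and equal spread in the groups. This does not show how they do at the smaller shifts and unequal spread seen here. All 21 assays are named. The comparison and the assays were chosen with earlier results of these data known. Nothing in the labels pairs the mice by number, and the deviations of mice with the same number had a correlation of 0.00985 over 63 values, from -0.349 to 0.114 by number, so the numbers were not used as pairs. The labels call the samples separate mice, and p-values measure the spread between them. The alternatives were other references, no reference, linear quantities, limma, the replicate block, a Ct limit of 35, pooled sham mice, each mouse left out, and, added after seeing the data, leaving out values that equal the mean of the others.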

Additional observations from a re-analysis of the deposited data

Results flagged for a closer look

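A03 drew attention because its difference between LAD + Myriocin and sham was not the same at 24 and 96 h, -1.47 log2 units apart by limma's interaction test (adjusted p = 0.0146). On the target Ct alone, and with the mean Ct of all targets as reference, the test called 1 assay each, in neither case A03, whose values were then -0.70 (adjusted p = 0.757) and -1.81 (adjusted p = 0.155). No mouse lay apart from its group by Dixon's test in the 27 sets of 4 to 7 mice tested, where chance flags about 1 in 20.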

How the results depend on the processing

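Against 3 assays at the unadjusted exact p, Benjamini-Hochberg adjustment left 0. limma called 5 over all mice, over the 2 groups and with the replicate block (as pairs by number), of which 2, 3 and 2 were shared with the exact test. Pooling the sham mice of both times called 8, and limma adjusted without the values equal to the mean of the others called 1. Leaving out 1 mouse gave 1 to 5 calls, with 5 without LAD + Myriocin 6 and 1 without sham 2 or sham 3. No reference moved the median of all assays by 0.47, the mean target by 0.25 and pooled sham by 0.33 log2 units. Without a reference, differences reversed to 0.0736 in A03, 0.64 in A07, 0.28 in B05 and -0.33 in B06. With the mean target as reference they were 0.44 in A07, 0.0127 in A09, 0.18 in B05 and -0.44 in B06, and with the mean reference 0.31 in A07 and -0.87 in B06. With pooled sham they were -0.11 in A05, 0.25 in A08 and 0.14 in A11, and with the block 0.21 in A12. Leaving out 1 mouse moved B01 from -0.45 to 0.69 and B06 from -0.0358 to 0.39. The reference Ct difference was 0.393 with pooled sham, -0.199 in A06, the assay read in all 12 mice (exact p = 0.785), and -0.335 over 5 pairs by number (exact p = 0.188, not below 0.0625 here). It ran from -0.442 to -0.269 with 1 mouse left out, under the threshold in 3 of 12. The interaction with time gave 4 assays unadjusted, 2 with the replicate block and 1 to 2 with 1 mouse left out, 2 without sham 4 of 96 h. The cause of these changes was not tested. Sham had 3 mice in 15 assays, and 4 assays sat at the smallest p of their group sizes.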
